A study of Arabidopsis thaliana with 8 samples.

Results

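The WRKY family is the set of plant transcription factors named after the WRKY amino-acid signature of their DNA-binding domain. Members were the rows of the expression table whose gene symbol or synonym, looked up by gene ID, is WRKY followed by a number. The rule found 69 genes among 22951 in the table, 65 by symbol and 4 by synonym, namely ZAP1 (WRKY1), TTR1 (WRKY16), TTG2 (WRKY44) and ABO3 (WRKY63). WRKY64 and WRKY68 carry such a name in the gene table but have no row in the expression table. No measured value was used to choose the members.

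RNA was sequenced from whole Arabidopsis thaliana seedlings, harvested at an age of 5 days after a cold period of 4 days at 4 °C and growth at 22 °C in days of 16 h light and 8 h dark. There were 8 libraries. The wild type Col-0 gave 3, Col-0 plants that overexpress the microRNA precursor gene MIR394A (MIR394A_OE) gave 2, and bin2-1 plants gave 3, which carry a dominant allele of BIN2, a kinase of brassinosteroid signalling. No hormone or stress treatment is named for any group, and neither the promoter of the overexpressor nor the number of lines behind it is given in the sources used here. Since the labels do not call the replicates separate sowings, p-values reflect only how far these samples differ from each other, and that spread may be technical.

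WRKY proteins bind the W box, a DNA element built around the bases TTGAC, and many WRKY genes have W boxes in their own promoters. They act mostly in immunity, where mitogen-activated protein kinase (MAPK) cascades and salicylic acid control several of them, and also in senescence, phosphate supply, trichome development and abscisic acid responses. WRKY46, WRKY54 and WRKY70 are a link to the brassinosteroid pathway: they are known partners of the transcription factor BES1 and substrates of BIN2.

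The shared element of the family can be read in the genes themselves, and the 21 coding bases of the 7-residue signature are shown because they are what all 69 members have in common. In the RefSeq reference (TAIR10.1) the 69 genes held 81 such stretches, with 2 copies in 12 members, all of subgroup I, and 1 copy in 57. The 81 copies comprised 62 different DNA sequences. The codon for the sixth residue, in capitals below, was CAA or CAG (glutamine) in 78 copies and AAG (lysine) in 3, those of WRKY50, WRKY51 and WRKY59. All coordinates are of coding exons.
WRKY29, chr4:12292491-12292511, plus strand: tggcgtaaatacgggCAGaaa
WRKY15, chr2:9925831-9925851, plus strand: tggaggaaatacggaCAAaaa
WRKY46, chr2:19044313-19044333, minus strand: tggagaaaatatgggCAAaaa
WRKY70, chr3:20909760-20909780, minus strand: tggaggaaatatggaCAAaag
WRKY54, chr2:17001378-17001398, minus strand: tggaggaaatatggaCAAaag
WRKY33 copy 1, chr2:16109358-16109378, plus strand: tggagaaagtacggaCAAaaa
WRKY33 copy 2, chr2:16109982-16110002, plus strand: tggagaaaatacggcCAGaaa
WRKY50, chr5:9147579-9147599, minus strand: tggagaaagtatgggAAGaag
WRKY51, chr5:25908864-25908884, plus strand: tggaggaagtatggcAAGaaa
WRKY59, chr2:9335762-9335782, minus strand: tggaggaaatacggaAAGaag

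The 300 bases before each annotated gene start were searched for TTGAC on both strands, written as TTGAC or GTCAA, and 41 of the 69 members (59.4%) held it, against 50.4% of 27443 promoters of the same length. At least 2 copies were present in 31.9% of members and in 17.9% of all promoters. The longer forms TTGACC and TTGACT, which contain TTGAC, were present in 40.6% of members and 32.3% of all promoters. CACGTG, the G-box, was present in 7 of the 69 members and in 7.1% of all promoters, and CGTGTG or CGTGCG, the brassinosteroid response element bound by BZR1, in 20.3% and 7.6%. The promoters of the 3 members with the smallest unadjusted p between bin2-1 and Col-0, and that of WRKY33, the member with the widest spread between libraries of Col-0 among the 5 highest, follow with TTGAC and GTCAA in capitals. WRKY29 held 4 copies, WRKY15 held 2, WRKY70 held 1 and WRKY33 held 3. A match is only a run of letters, and binding was not measured.
WRKY29, chr4:12291332-12291631, plus strand: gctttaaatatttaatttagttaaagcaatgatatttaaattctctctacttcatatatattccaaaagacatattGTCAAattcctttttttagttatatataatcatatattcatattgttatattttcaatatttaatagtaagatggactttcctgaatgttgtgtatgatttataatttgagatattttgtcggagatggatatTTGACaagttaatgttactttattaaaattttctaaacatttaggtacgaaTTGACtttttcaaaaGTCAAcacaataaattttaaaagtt
WRKY15, chr2:9924586-9924885, plus strand: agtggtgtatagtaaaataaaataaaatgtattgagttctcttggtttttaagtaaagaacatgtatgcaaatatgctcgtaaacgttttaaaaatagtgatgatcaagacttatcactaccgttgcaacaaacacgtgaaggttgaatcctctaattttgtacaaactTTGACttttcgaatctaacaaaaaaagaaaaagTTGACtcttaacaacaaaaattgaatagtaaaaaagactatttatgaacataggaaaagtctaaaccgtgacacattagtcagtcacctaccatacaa
WRKY70, chr3:20910624-20910923, minus strand: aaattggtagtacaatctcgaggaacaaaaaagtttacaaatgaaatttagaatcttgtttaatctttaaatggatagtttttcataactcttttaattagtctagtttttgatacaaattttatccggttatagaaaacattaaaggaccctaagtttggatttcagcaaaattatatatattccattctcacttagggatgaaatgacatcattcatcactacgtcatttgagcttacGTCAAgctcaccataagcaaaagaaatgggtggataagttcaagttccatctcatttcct
WRKY33, chr2:16107935-16108234, plus strand: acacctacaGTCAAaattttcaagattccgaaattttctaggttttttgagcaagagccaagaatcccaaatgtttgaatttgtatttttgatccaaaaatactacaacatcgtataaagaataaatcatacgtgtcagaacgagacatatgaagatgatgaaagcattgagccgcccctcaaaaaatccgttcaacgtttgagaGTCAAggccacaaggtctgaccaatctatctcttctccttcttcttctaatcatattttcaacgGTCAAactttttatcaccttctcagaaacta

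Levels are FPKM, fragments per kilobase of transcript and per M mapped, as deposited, and can be compared between genes because they are per length. The depth estimated from the steps between low values was 9.61 to 11.27 M reads per library, and a count of 3 reads on a 1 kb transcript corresponds to 0.266 to 0.312 FPKM, a floor that covers counting error only. Marker genes of shoot (5 genes, summed 19056.6 to 31390.2 FPKM) and of root (5 genes, summed 49 to 86.5 FPKM) were detected in all 8 libraries. LCR, the known target of miR394, was at 19.62, 19.62 and 23.86 FPKM in Col-0 and at 17.15 and 17.47 FPKM in MIR394A_OE. BIN2 ranged over 94.11 to 111.22 FPKM in the wild type and 91.81 to 110.86 FPKM in bin2-1, whose lesion is in the coding sequence, so that its transcript level does not check the label. On the first principal component of all genes, which held 43.1% of the variance, the bin2-1 libraries lay at 30.9 to 38.6 and the others from -54.2 to 2.7, with Col-0 replicate 1 (-35.4) and MIR394A_OE replicate 1 (-54.2) lowest. In bulk seedlings, fewer cells of a type and less RNA per cell cannot be told apart.

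Of the 69 members, 54 had a mean over the 8 libraries of at least 1 FPKM and entered the tests, which ran over all 18798 genes past that limit. A mean of at least 5 FPKM was reached by 34 members and of at least 20 FPKM by 17. The 5 highest were WRKY18 (mean 123 FPKM), a subgroup IIa repressor of basal defence, WRKY33 (99.8 FPKM), an activator of camalexin synthesis, WRKY11 (96.2 FPKM), a calmodulin-binding member of subgroup IId, WRKY65 (79.1 FPKM) of subgroup IIe, and WRKY15 (71.6 FPKM), a subgroup IId gene of growth and oxidative stress responses. Subgroup IId was the most uniformly high, with 6 of 7 members at 20 FPKM or more, while none of 17 members of IIc and none of 12 of III reached a mean of 20 FPKM. The 15 members under 1 FPKM include 6 of the 12 in subgroup III, and WRKY67, WRKY66, WRKY10 and WRKY34 had at most 3 estimated reads in every library. WRKY34, which acts in pollen, was listed at 0 in 7 libraries and at 0.05 FPKM in the other.

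**Figure D1:**
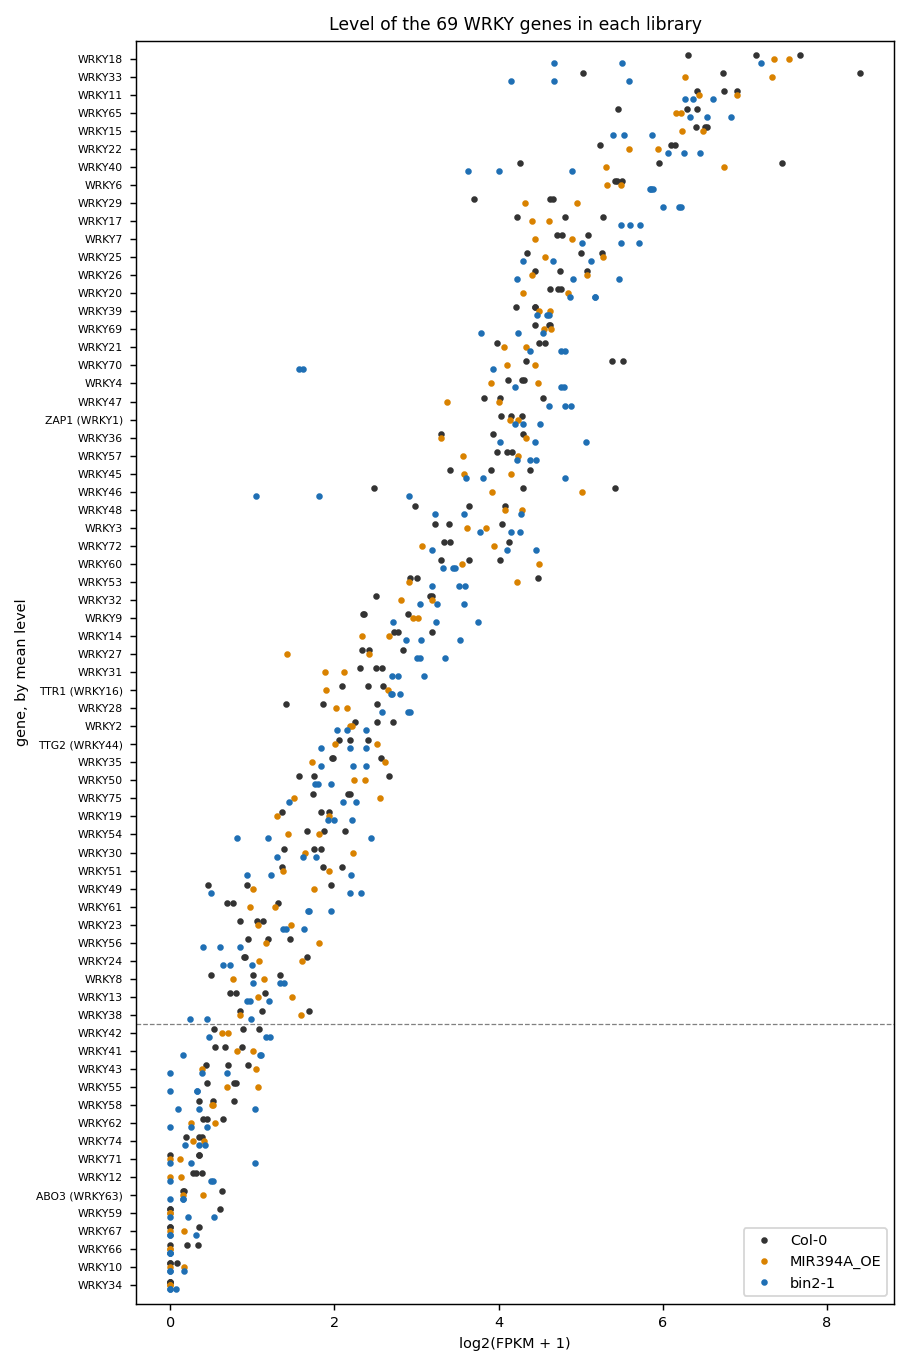
Level of each of the 69 WRKY genes on the log2(FPKM + 1) scale, 1 point per library, ordered by mean over the 8 libraries, with the 15 genes under a mean of 1 FPKM below the dashed line. The spread between libraries of WRKY33, WRKY40, WRKY18, WRKY70 and WRKY46 is wide, whereas the points of WRKY6, WRKY39 and WRKY1 lie close together.

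Replicates of a group differed in many members. Within Col-0, 19 of 54 members (35.2%) differed more than 2-fold between their highest and lowest library, against 15.5% of all tested genes. The share in bin2-1 was 31.5% of members and 11.3% of all genes, and that in MIR394A_OE was 20.4% and 12.6%. A range over 5-fold was seen for 4 members in Col-0, 6 in bin2-1 and 0 in MIR394A_OE, against 1.72%, 1.1% and 0.489% of all tested genes. Genes outside the family had ranges as wide, among them the early stress gene SZF1, at 427.21 to 56.64 FPKM, and the ethylene synthesis gene ACS6, at 101.82 to 9.6 FPKM in Col-0. These are descriptions of 2 or 3 libraries per group, and no test was made on them.

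bin2-1 was compared with Col-0 to ask which members differ when the BIN2 kinase is hyperactive. No member passed limma's test at a Benjamini-Hochberg adjusted p of 0.05, against 21 of 18798 genes (0.112%), of which 0.0532% were higher and 0.0585% lower. At an unadjusted p under 0.05, 9 members were higher and 6 lower in bin2-1, against 11.1% and 6.67% of all tested genes. All 3 bin2-1 libraries lay above all 3 Col-0 libraries for 13 members and below them for 3, where all genes gave 20.2% and 8.47%. The share of members at p under 0.05, 27.8%, stood beside 17.8% of all genes. Another scaling moved the split of 9 higher and 6 lower to 6 and 9 with median-of-ratios factors and to 8 and 8 with quantile normalization, since the median gene, 0.10 higher in bin2-1 as deposited, then moved to 0.01 and 0.05 on the log2 scale. The median log2 difference was 0.18 over the members and 0.10 over all genes, and 32 of 54 members were positive (63.4% of all genes). The 95% intervals of 30 members lay within -1 and 1.

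**Figure D2:**
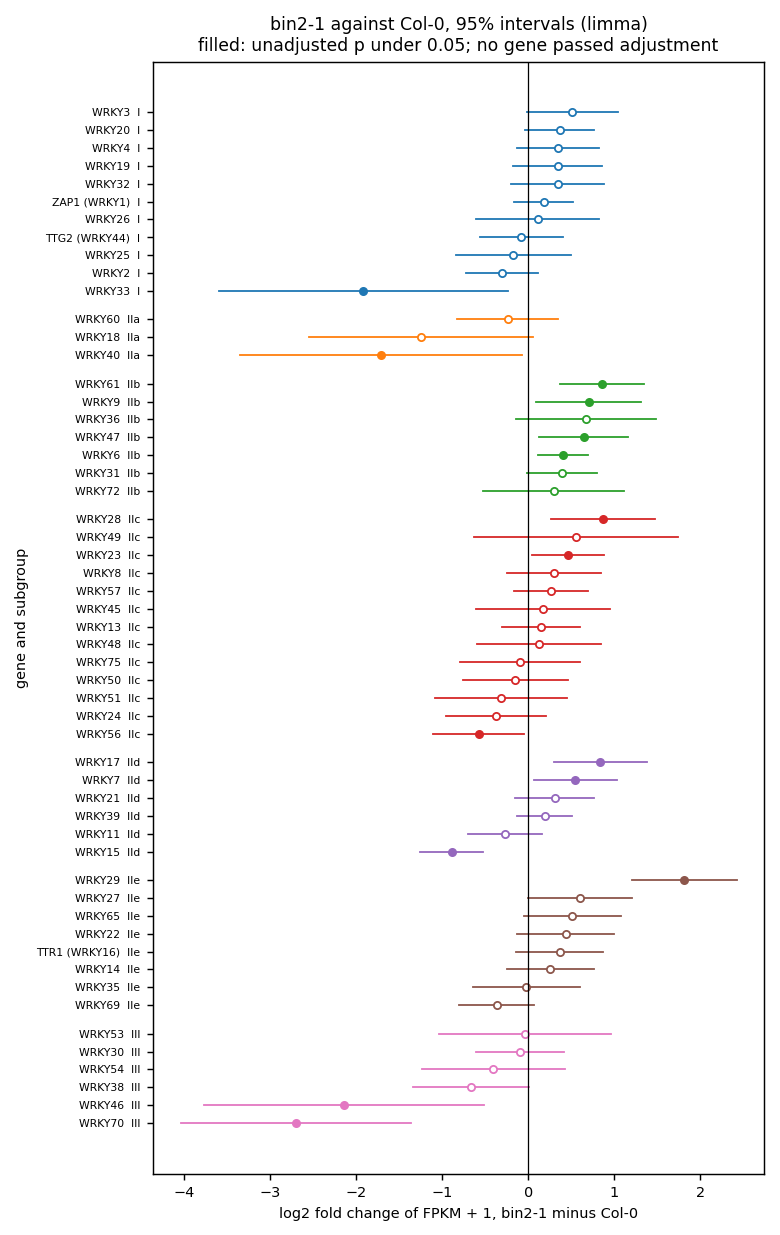
log2 differences of FPKM + 1 between bin2-1 and Col-0 for the 54 tested members with 95% intervals from limma, grouped by subgroup. All 7 subgroup IIb members lie right of 0 and all 3 of IIa and 6 of III lie left of it, while no member passed the adjusted threshold.

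WRKY29 (AT4G23550, chr4:12291632-12293367), a member of subgroup IIe that is activated below MAPK cascades on perception of bacterial flagellin, had the smallest p of the family. It was at 12.01, 23.67 and 24.44 FPKM in Col-0, at 18.93 and 29.95 FPKM in MIR394A_OE and at 63.25, 73.53 and 72.42 FPKM in bin2-1. Every bin2-1 library was above every other library, and the means were 20.04 ± 6.97 (SD, n = 3) in Col-0 and 69.7 ± 5.64 FPKM (SD, n = 3) in bin2-1. The log2 difference was 1.81 (SE 0.27), and the adjusted p by limma was 0.0512, just outside the threshold. The call depended on the setting: limma's adjusted p was 0.0488 with a minimum mean of 5 FPKM, 0.0431 under median-of-ratios scaling, 0.0349 without Col-0 replicate 3 and 0.0474 without bin2-1 replicate 3. WRKY29 did not pass with quantile normalization, another pseudocount, no filter, the groups compared alone or another prior. Nor did it pass without Col-0 replicate 1 or 2, or without bin2-1 replicate 1 or 2. The GH9B15 gene overlaps WRKY29 by 251 bases on the opposite strand and was at 0.05 to 0.40 FPKM in all libraries. WRKY22, which is placed beside WRKY29 in that pathway, was at 36.82, 70.02 and 67.86 FPKM in Col-0 and at 87, 66.13 and 75.86 FPKM in bin2-1. Its groups overlapped, with a log2 difference of 0.43 (SE 0.25, limma adjusted p 0.385). WRKY65, the highest of subgroup IIe, was at 42.76, 84.32 and 77.54 FPKM in Col-0 and at 79.48, 92.19 and 112.44 FPKM in bin2-1, also with overlap (log2 0.51, SE 0.25).

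WRKY15 (AT2G23320, chr2:9924886-9926372) was at 90.71, 91.88 and 83.72 FPKM in Col-0, at 88.65 and 74.31 FPKM in MIR394A_OE and at 41.17, 45.01 and 57.37 FPKM in bin2-1. The bin2-1 libraries were all below the other 5, and the log2 difference from Col-0 was -0.89 (SE 0.16, limma adjusted p 0.0671). Median-of-ratios scaling gave -1.0 and an adjusted p of 0.0431 by limma. Without bin2-1 replicate 3 the adjusted p by limma was 0.0342. WRKY15 passed under no other alternative in this comparison. Of the 6 tested members of subgroup IId, 4 were positive. WRKY17, a repressor of basal resistance, was at 17.67, 26.92 and 37.8 FPKM in Col-0 and at 51.76, 47.51 and 44 FPKM in bin2-1, with no overlap and a log2 difference of 0.84 (SE 0.24, limma adjusted p 0.141). WRKY7, another calmodulin-binding member, was at 33.14, 25.22 and 26.39 FPKM in Col-0 and at 51.28, 44.04 and 31.48 FPKM in bin2-1, where the lowest bin2-1 library lay within the Col-0 range, and the log2 difference was 0.55 (SE 0.21, limma adjusted p 0.236). WRKY11, the partner of WRKY17 in basal resistance, was at 106.51, 118.72 and 84.61 FPKM in Col-0 and at 76.19, 81.75 and 97.03 FPKM in bin2-1. Its groups overlapped, with a log2 difference of -0.27 (SE 0.19, limma adjusted p 0.469).

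The BIN2 substrates WRKY46, WRKY54 and WRKY70 belong to subgroup III, in which 0 of 6 tested members was positive (median -0.53, lowest -2.70, highest -0.04). The median was -0.88 without bin2-1 replicate 3, -1.04 with a pseudocount of 0.1 FPKM and -2.14 over the 3 members with a mean of at least 5 FPKM. It was smaller in size without Col-0 replicate 2 (-0.36), bin2-1 replicate 2 (-0.38) or bin2-1 replicate 1 (-0.41). With no filter it was -0.24 over 12 members. Of the 6 tested members, 1 was positive without Col-0 replicate 1, bin2-1 replicate 2 or bin2-1 replicate 3. WRKY70 (AT3G56400, chr3:20908711-20910623), a node between salicylic acid and jasmonate signalling, was at 44.65, 40.66 and 19.1 FPKM in Col-0, at 20.85 and 16.13 FPKM in MIR394A_OE and at 2.08, 1.96 and 14.26 FPKM in bin2-1. The bin2-1 libraries were all below the other 5, with replicate 3 well above the other 2. The log2 difference from Col-0 was -2.70 (SE 0.59, 95% interval -4.04 to -1.36) and the limma adjusted p 0.0930. Without bin2-1 replicate 3 it was -3.48, with an adjusted p of 0.0141 by limma. WRKY70 passed under no other alternative in this comparison.
WRKY46 was at 41.64, 18.68 and 4.61 FPKM in Col-0, at 31.49 and 14.09 FPKM in MIR394A_OE and at 1.06, 2.52 and 6.54 FPKM in bin2-1. Col-0 replicate 3 lay within the bin2-1 range. The log2 difference was -2.14 (SE 0.72, limma adjusted p 0.187). WRKY54, which shares with WRKY70 the 21 bases shown above, was low and mixed, at 2.67, 3.36 and 2.17 FPKM in Col-0 and at 0.76, 1.28 and 4.44 FPKM in bin2-1. Its log2 difference was -0.41 (SE 0.37, limma adjusted p 0.585), and its groups overlapped. WRKY53, a regulator of leaf senescence in the same subgroup, was at 21.29, 7.06 and 6.56 FPKM in Col-0 and at 11.03, 10.41 and 8.1 FPKM in bin2-1, a log2 difference of -0.04 (SE 0.44). The opposite-strand gene 3xHMG-box2 overlaps it by 341 bases and was at 14.85 to 37.37 FPKM.

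**Figure D3:**
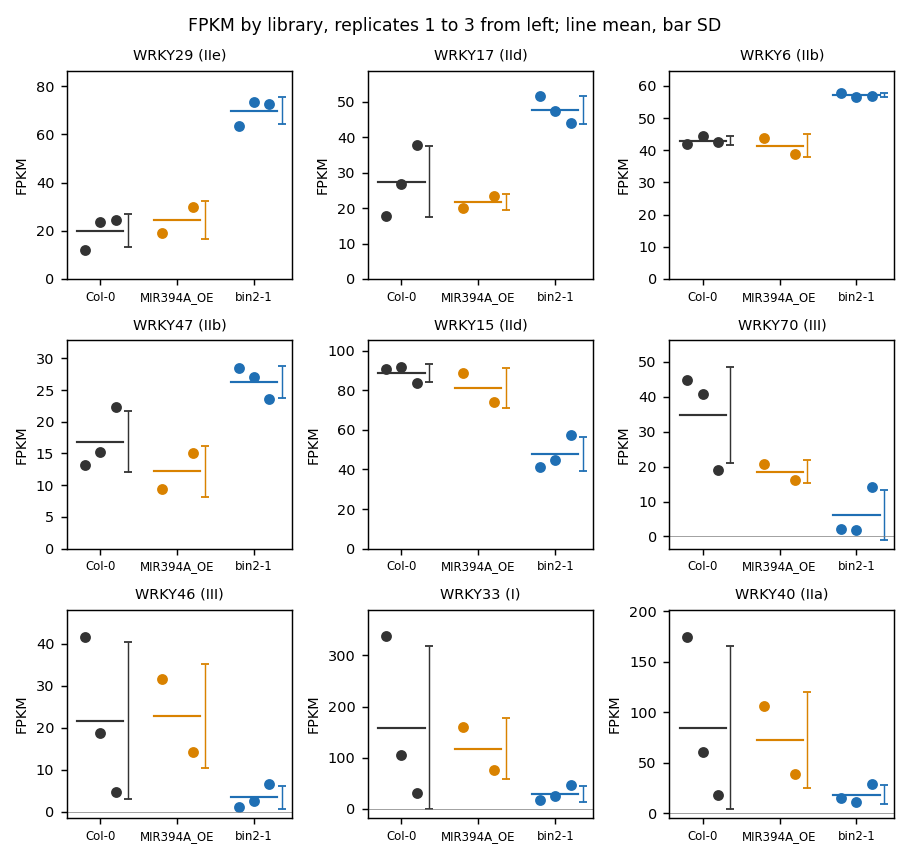
FPKM in each library for 9 WRKY genes named in the text, with the mean as a line and the SD as a bar. WRKY29, WRKY17, WRKY6 and WRKY47 have all bin2-1 points above all Col-0 points and WRKY15 and WRKY70 below, whereas for WRKY46, WRKY33 and WRKY40 the groups overlap at Col-0 replicate 3.

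Subgroup IIa holds WRKY18, WRKY40 and WRKY60, which act together as repressors of basal defence and in abscisic acid signalling. WRKY18 was at 139.58, 203.25 and 78.42 FPKM in Col-0, at 163.2 and 185.45 FPKM in MIR394A_OE and at 24.52, 44.28 and 146.32 FPKM in bin2-1. bin2-1 replicate 3 lay inside the Col-0 range. The log2 difference was -1.25 (SE 0.57, limma adjusted p 0.293). WRKY40 was at 174.49, 60.93 and 18.23 FPKM in Col-0 and at 15.06, 11.37 and 28.67 FPKM in bin2-1, with a log2 difference of -1.72 (SE 0.73, limma adjusted p 0.263). WRKY60 differed less, at 11.49, 15.16 and 8.86 FPKM in Col-0 and 10.08, 8.99 and 9.91 FPKM in bin2-1. WRKY33, of subgroup I, followed WRKY40 across the libraries: it was at 337.24, 105.43 and 31.63 FPKM in Col-0, at 159.59 and 76.11 FPKM in MIR394A_OE and at 16.7, 24.49 and 47.16 FPKM in bin2-1, with a log2 difference of -1.92 (SE 0.74, limma adjusted p 0.235). Both genes were highest in Col-0 replicate 1 and lowest in a bin2-1 library. On the opposite strand the lncRNA gene AT2G08965 overlaps WRKY33 by 272 bases, AT2G38480 overlaps it by 26, and AT1G80850 overlaps WRKY40 by 51. WRKY25, which joins WRKY33 as a partner of the MPK4 substrate MKS1, was at 19.3, 37.21 and 31.11 FPKM in Col-0 and at 18.63, 24.27 and 33.96 FPKM in bin2-1, with overlapping groups (log2 -0.17, SE 0.30).

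Subgroup IIb was the only one of those with more than 3 tested members in which every tested member was positive in bin2-1 (7 of 7, median 0.64), and it stayed 7 of 7 under every alternative with 54 members tested, while its median was 0.41 without Col-0 replicate 1. WRKY6, a regulator of senescence and of the phosphate exporter gene PHO1, was at 41.86, 44.52 and 42.65 FPKM in Col-0, at 43.93 and 38.88 FPKM in MIR394A_OE and at 57.84, 56.68 and 56.72 FPKM in bin2-1. The groups were apart with little spread, and the log2 difference was 0.40 (SE 0.13, limma adjusted p 0.174). WRKY47 was at 13.11, 15.2 and 22.26 FPKM in Col-0 and at 28.41, 27.05 and 23.53 FPKM in bin2-1, a log2 difference of 0.64 (SE 0.23, limma adjusted p 0.208). WRKY9 was at 4.08, 6.42 and 4.14 FPKM in Col-0 and at 5.56, 8.41 and 12.5 FPKM in bin2-1, with 1 library of overlap and a log2 difference of 0.70 (SE 0.27, limma adjusted p 0.231). WRKY61, below the 5 FPKM limit set for the named members, had the largest difference of the subgroup, 0.86 (SE 0.22, limma adjusted p 0.115), from 0.93 to 2.44 FPKM in the group means, and the lncRNA gene AT1G05447 overlaps it by 216 bases on the opposite strand. Outside IIb, WRKY28, an activator of salicylic acid synthesis, was at 1.66, 2.64 and 4.75 FPKM in Col-0 and at 6.46, 4.96 and 6.57 FPKM in bin2-1, without overlap (log2 0.87, SE 0.27, limma adjusted p 0.160). WRKY27 was at 4.36, 4.04 and 6.14 FPKM in Col-0 and at 7.01, 9.22 and 7.22 FPKM in bin2-1, also without overlap (log2 0.60, SE 0.27, limma adjusted p 0.281).

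**Figure D4:**
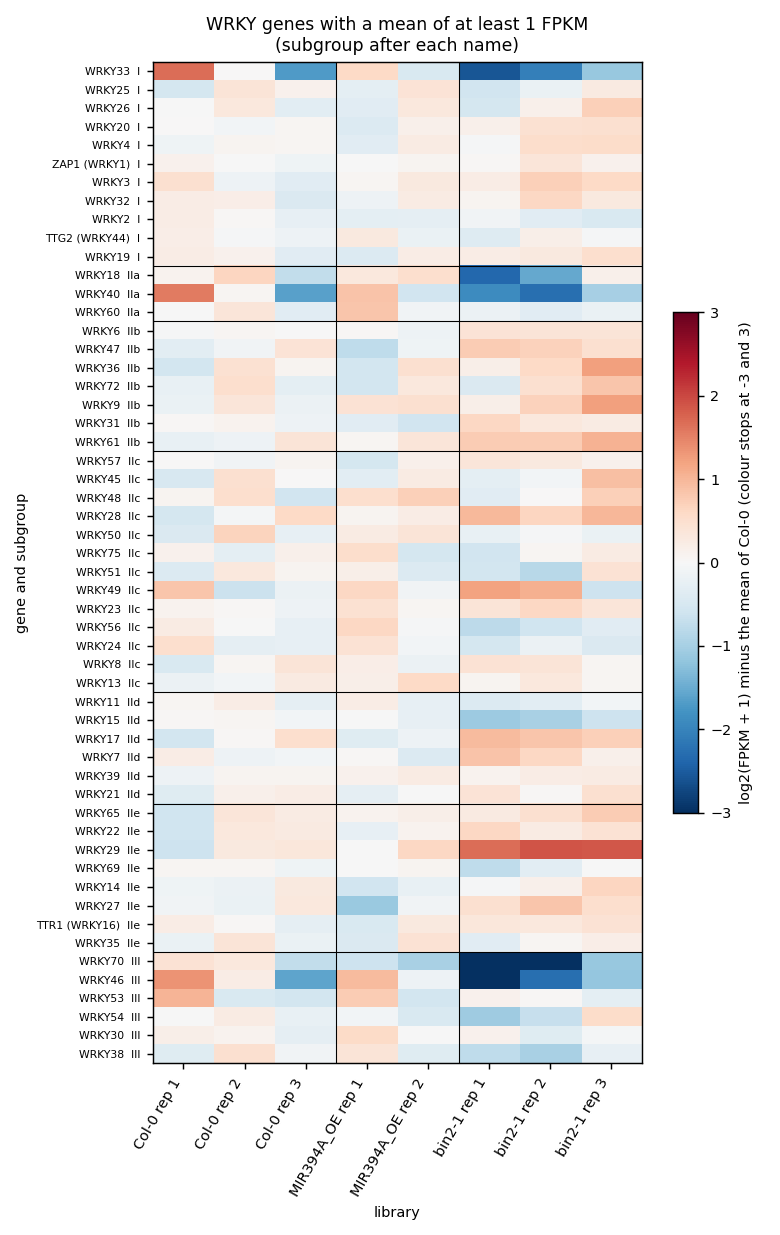
Level of the 54 tested members in each library, as log2(FPKM + 1) minus the mean of Col-0, by subgroup, with colours cut at -3 and 3. The strongest colours fall in subgroups IIa and III and in WRKY33, and within Col-0 replicates 1 and 3 differ in several of these genes.

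WRKY45 and WRKY75, regulators of phosphate uptake, were at 9.61 to 19.8 and 2.34 to 3.55 FPKM in Col-0 against 11.12 to 26.98 and 1.73 to 3.82 FPKM in bin2-1, with log2 differences of 0.17 (SE 0.35) and -0.09 (SE 0.31). WRKY42, a repressor of PHO1, was under 1 FPKM on average, at 0.39 to 1.33 FPKM over the 8 libraries, and was not tested. TTG2 (WRKY44), which acts in trichomes and the seed coat, was at 3.16 to 4.3 FPKM in Col-0 against 2.57 to 4.21 FPKM in bin2-1, with a log2 difference of -0.08 (SE 0.22). The TIR-domain receptor gene TTR1 (WRKY16) was at 3.26 to 5.03 FPKM in Col-0 against 5.46 to 5.95 FPKM in bin2-1, with no overlap (log2 0.36, SE 0.23). WRKY69 was at 20.69 to 23.6 FPKM in Col-0 against 12.81 to 22.23 FPKM in bin2-1 (log2 -0.37, SE 0.20), and the opposite-strand gene AT3G58720 overlaps it by 373 bases, with 5.34 to 8.17 FPKM in Col-0 and 11.32 to 12.69 FPKM in bin2-1. Whether reads were assigned by strand was not given in the sources used here.

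Genes known to act beside the family were read from lists of 3 to 13 genes, of which no member passed limma's adjusted test in any comparison. The touch and early stress list was the most displaced: 0 of 13 were positive in bin2-1 against Col-0, 9 of 13 were lower at an unadjusted p under 0.05, and the median log2 difference was -1.99. Over all 84 list genes tested, which include the shoot and root markers, 27 were lower and 2 higher at that p (32.1% and 2.38%). All tested genes gave 6.67% and 11.1%. TCH4, a wall enzyme gene induced by touch, was at 913.31, 1617.64 and 789.01 FPKM in Col-0 and at 54.08, 81.52 and 365.72 FPKM in bin2-1. CML37 was at 52.52, 38.16 and 13.31 FPKM in Col-0 and at 0.36, 1.16 and 7.3 FPKM in bin2-1. For both genes the bin2-1 libraries were all below Col-0, with replicate 3 the highest of the 3, as it was for WRKY70 and WRKY18. In the MAPK list 5 of 10 were lower at that p and none higher, including MPK3, which acts above WRKY33, at 393.29, 389.8 and 106.5 FPKM in Col-0 and 43.58, 42.1 and 90.34 FPKM in bin2-1. Its log2 difference was -2.19 (SE 0.50, limma adjusted p 0.102). The log2 differences of MPK6 and MPK4 were 0.13 and 0.07.

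In the list of salicylic acid defence genes, 6 of 12 were lower at an unadjusted p under 0.05, where 6.67% of all tested genes were, and the median was -1.17. PAD4, a lipase-like defence regulator, had a log2 difference of -1.12 (SE 0.27), CBP60G, an activator of salicylic acid synthesis, -2.34 (SE 0.59), and PBS3, a salicylic acid synthesis gene, -2.41 (SE 0.75). Of the 4 markers of pattern-triggered immunity, FRK1 went with WRKY29: it was at 3.33, 3.09 and 2.48 FPKM in Col-0 and at 11.77, 7.03 and 6.04 FPKM in bin2-1, without overlap, a log2 difference of 1.18 (SE 0.25, limma adjusted p 0.0895). PHI-1 and CYP81F2 went the other way, with -3.70 (SE 0.65) and -0.87 (SE 0.28). Among the VQ-motif proteins, partners of WRKY factors, 2 of 7 were lower at that p, CAMBP25 (-1.68, SE 0.35) and SIB1 (-1.64, SE 0.48), while MKS1, the partner of WRKY25 and WRKY33, was at -0.42 (SE 0.24). The camalexin and ethylene list had none of 6 at that p (median -0.84; the largest was ACS6 at -1.64, SE 0.80).
Of the remaining lists none of 5 phosphate genes, of 7 trichome and seed coat genes or of 4 senescence genes reached an unadjusted p under 0.05, with medians of 0.12, 0.02 and 0.40. In the abscisic acid list of 4, RAB18 was lower (-0.87, SE 0.27) and ABF4 higher (0.44, SE 0.17) at that p. Among the 3 brassinosteroid partners, BES1 was at 95.17, 83.03 and 76.02 FPKM in Col-0 and 70.13, 54.68 and 59.96 FPKM in bin2-1, a log2 difference of -0.46 (SE 0.15, limma adjusted p 0.186). The log2 differences of BZR1 and BIN2 were -0.09 and -0.03. Of the shoot markers LHCB2.1 was lower (-0.78, SE 0.23), and none of the 5 root markers reached that p.

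Replicates of Col-0 did not all look alike in these genes. Col-0 replicate 1 was highest and replicate 3 lowest for WRKY33, WRKY40 and WRKY46, as for the early stress genes STZ (223.84, 69.55 and 41.76 FPKM), ERF6 (326.41, 141.51 and 52.11 FPKM) and SZF1 (427.21, 222.31 and 56.64 FPKM). WRKY53 was likewise highest in replicate 1 of Col-0 and of MIR394A_OE. Salicylic acid and camalexin genes went both ways. BGL2 was at 1.58, 73.61 and 75.19 FPKM and PAD3 at 1.93, 9.05 and 14.97 FPKM in Col-0, lowest in replicate 1. By contrast, CBP60G (44.61, 40.76 and 10.44 FPKM) and NPR3 (35.56, 32.33 and 15.33 FPKM) had the order of WRKY33, with replicate 3 lowest. bin2-1 replicate 3 was above the other 2 for BGL2 (1.26, 1.09 and 35.71 FPKM), PAD3, PBS3, TCH4, WRKY70 and WRKY18. The part of these library differences in the comparisons above was not tested beyond leaving each library out.

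**Figure D5:**
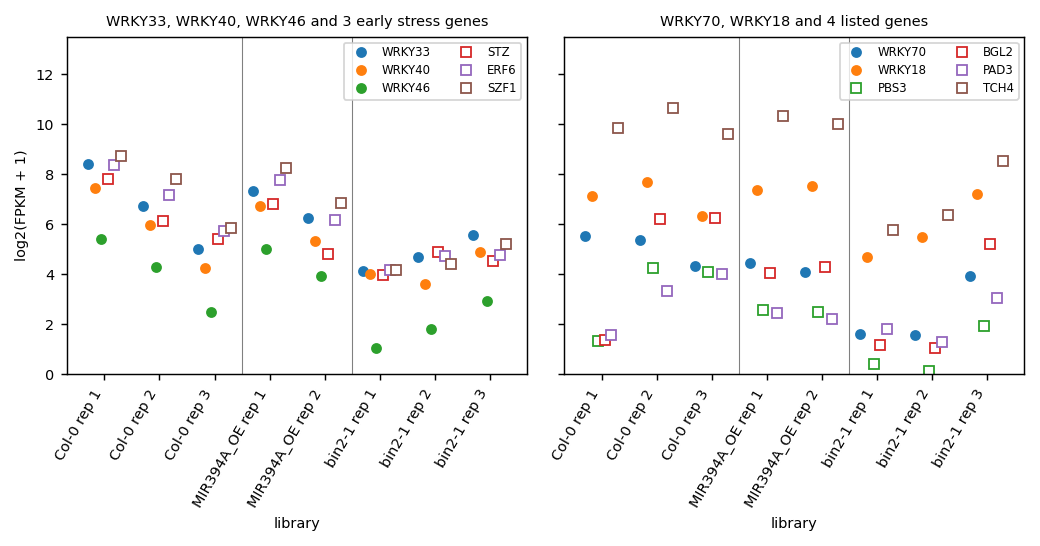
log2(FPKM + 1) in each library for WRKY33, WRKY40 and WRKY46 beside 3 early stress genes (left), and for WRKY70 and WRKY18 beside 4 listed genes (right). On the left all 6 genes are highest in Col-0 replicate 1 and MIR394A_OE replicate 1 exceeds replicate 2. On the right all 6 genes are higher in bin2-1 replicate 3 than in the other bin2-1 libraries.

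MIR394A_OE was compared with Col-0 to ask which members differ when miR394 is overexpressed. No member passed limma's adjusted test, against 2 of 18798 genes (0.0106%). At an unadjusted p under 0.05 no member was higher and 1, WRKY31, was lower, against 3.15% and 1.63% of all tested genes (4.78% together). WRKY31 was at 4.69, 4.96 and 3.95 FPKM in Col-0 and at 3.35 and 2.69 FPKM in MIR394A_OE, below in every library (log2 -0.46, SE 0.20, limma adjusted p 0.873). All libraries of the overexpressor lay above Col-0 for 3 members and below for 3, against 10.9% and 6.17% of all genes. The log2 differences ran from -0.80 (WRKY70, SE 0.66) to 0.62 (WRKY48, SE 0.36), with a median of 0.01 beside 0.04 over all genes, and 29 of 54 members were positive. The 95% intervals of 40 members lay within -1 and 1, whereas those of WRKY33 (-1.80 to 1.96) and WRKY40 (-1.70 to 1.97) were wide.

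Of the named members, WRKY48, an immune repressor, was at 15.93 and 18.57 FPKM in the overexpressor and at 6.92 to 15.88 FPKM in Col-0, above every Col-0 library. WRKY9 lay above Col-0 as well, at 6.77 and 7.12 FPKM, and WRKY39 at 21.43 and 23.61 FPKM against 17.6 to 20.71 FPKM. WRKY14 lay below, at 4.04 and 5.33 FPKM against 5.62 to 8.11 FPKM. WRKY17 and WRKY47 were within or overlapping the Col-0 range, with log2 differences of -0.26 (SE 0.27) and -0.44 (SE 0.26). WRKY60, WRKY3, WRKY18, WRKY46 and WRKY29 had positive differences of 0.37, 0.17, 0.41, 0.40 and 0.30, and WRKY57, WRKY7, WRKY15 and WRKY20 negative ones of -0.18, -0.19, -0.13 and -0.13, with groups that overlapped. The overexpressor libraries stood apart from each other for WRKY46 (31.49 and 14.09 FPKM) and WRKY60 (21.52 and 10.78 FPKM). Of the 84 list genes tested, shoot and root markers included, 4 were lower at an unadjusted p under 0.05 (4.76%, against 1.63% of all genes) and none was higher (3.15% of all genes). The 4 were MKK5 (-0.52), PR5 (-1.10), YLS9 (-0.68) and AT1G78310 (-0.75).

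MIR394A_OE and bin2-1 were compared directly, in a contrast that shares their libraries with the comparisons above. No member passed limma's adjusted test, against 10 of 18798 genes (0.0532%, with 0.0213% higher and 0.0319% lower), and the lowest adjusted p was 0.102. At an unadjusted p under 0.05, 7 members were higher in the overexpressor and 11 lower, against 8.08% and 10.9% of all tested genes. The split was 1 and 7 without MIR394A_OE replicate 1, 3 and 11 without bin2-1 replicate 1 or 2, and 11 and 7 without bin2-1 replicate 3. All overexpressor libraries lay above all bin2-1 libraries for 11 members and below for 15, where all genes gave 15% and 20.9%. The median was -0.17 over the members and -0.06 over all genes, and 24 of 54 members were positive. By subgroup, 0 of 7 IIb members and 2 of 8 IIe members were positive, while all 3 of IIa and all 6 of III were. Without MIR394A_OE replicate 1, 1 of 7 in IIb and 4 of 6 in III were positive, and the median of III, 0.52 with all libraries, was 0.19.
WRKY29 had a log2 difference of -1.51 (SE 0.30), and WRKY31, WRKY47, WRKY17 and WRKY27 had -0.85, -1.08, -1.10 and -1.21, each without overlap. WRKY6 (-0.46), WRKY7 (-0.74) and WRKY14 (-0.65) were also lower at that p. On the other side, WRKY15 had 0.76 (SE 0.18), WRKY46 2.54 (SE 0.80), WRKY70 1.90 (SE 0.66), WRKY18 1.66 (SE 0.64), WRKY33 2.00 (SE 0.83) and WRKY40 1.85 (SE 0.81), each without overlap. WRKY60 and WRKY69, at 0.61 and 0.41, were above bin2-1 in both libraries without reaching that p. Limma's adjusted p was between 0.102 and 0.335 for these members. In the touch and early stress list 13 of 13 were positive, 7 of them at that p (8.08% of all genes), with a median of 2.1.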

How the data were processed

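The deposited table holds gene-level FPKM for 8 libraries, calculated by the authors. The submitters' processing notes name Bowtie2 and HISAT without their roles, and the genome build, the program for FPKM and the use of strand were not given in the sources used here. Groups were taken from the labels. From the low values, 87.6 to 92.3% were whole multiples of 1 read within 0.1 read, which gave the depths. Genes whose mean over the libraries reached 1 FPKM were tested as log2(FPKM + 1), which understates the change of low genes, in limma 3.58.1 (R 4.3.3) with 1 fit over the 3 groups, a trended and robust prior and Benjamini-Hochberg adjustment at 0.05. The fit was tested on simulated data. Named members were up to 8 per direction and comparison with the smallest unadjusted p and at least 5 FPKM in the higher group, the 5 highest in mean, and those of fixed roles, and from each list up to 3 genes. Genes described outside the rule, among them WRKY61, TTR1, WRKY31 against Col-0, further list genes and the overlapping genes, were chosen after their values were seen. Members and lists were chosen with earlier results of these data known. Sequences and gene coordinates were read from RefSeq's TAIR10.1 genome and annotation, matched by gene ID. Subgroups I to III were assigned by name from general knowledge. RRS1, whose synonym is spelled differently, falls outside the rule. Alternatives were the pseudocount (0.1 and 0.5), the filter, the scaling, the groups alone, the prior, a replicate block and each library left out.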

Additional observations from a re-analysis of the deposited data

How the results depend on the processing

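Of 1024 values recomputed, 983 were classed as the same. For a named member that means the same direction and side of the threshold. A count had to stay within a fixed ratio of its first value. A median had to shift by less than 0.348 on the log2 scale, and could change sign. That bound is the pooled SD within groups of the members' median level per library. It is larger in size than the median differences of MIR394A_OE against Col-0 (0.01), bin2-1 against Col-0 (0.18) and MIR394A_OE against bin2-1 (-0.17). The class therefore says little about how stable the medians are. In bin2-1 against Col-0, 0 members passed limma's adjusted test. With a minimum mean of 5 FPKM 1 passed, where 25 of 13823 genes did. Median-of-ratios scaling gave 2, where 107 of 18798 genes passed, and the replicate block 1, where 32 did. Leaving out each library gave 0 to 3, the 3 without bin2-1 replicate 3, where 171 of 18798 genes passed. Whether the replicate numbers pair the samples is not known. Correlations of deviations from the group means ran from -0.20 to 0.36 for same-numbered libraries and from -0.36 to 0.44 for the others. They cannot decide it, since deviations within a group sum to 0 and so depend on each other. The block is therefore given only here (WRKY29 adjusted p 0.0271 by limma). With the block, the 7 members higher and 11 lower in MIR394A_OE than in bin2-1 at an unadjusted p under 0.05 became 3 and 9. In bin2-1 against Col-0 the members at an unadjusted p under 0.05, 15 with all libraries, numbered 8 to 20 with each library left out. In MIR394A_OE against bin2-1 the adjusted count of 0 became 1 (WRKY70, limma adjusted p 0.0379) without bin2-1 replicate 3, where 84 of 18798 genes passed. It stayed 0 without any other library of Col-0 or bin2-1. Without MIR394A_OE replicate 2 the log2 differences of WRKY29 and WRKY27 were -1.82 and -1.71, and that of WRKY15 was 0.89. Where 1 overexpressor library is left, it is assumed to vary like the other groups. Adjusted counts for comparisons with MIR394A_OE are therefore not given for those fits, and the count of 0 above does not cover them. The 18 at an unadjusted p became 8 without both libraries lowest on the first component, and 8 to 22 with each left out. In MIR394A_OE against Col-0 the count of 1 became 0 with a minimum mean of 5 FPKM, with the groups compared alone and without both lowest libraries, and 0 to 4 with each left out. Directions turned there for uncalled members with a library left out: WRKY29 ran from -0.01 to 0.62, WRKY46 from -0.39 to 1.08 (-0.15 without MIR394A_OE replicate 1), WRKY60 from -0.09 to 0.84, WRKY57 from -0.52 to 0.15, WRKY20 from -0.41 to 0.15 and WRKY7 from -0.42 to 0.03. Without both lowest libraries WRKY60 was at -0.10 and WRKY57 and WRKY20 at 0.16. The cause of these shifts was not tested. The number of libraries limits precision, with a median SE of 0.25 to 0.28 on the log2 scale.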

Other observations

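Further members outside the named rule, chosen after their values were seen, are given here as values. WRKY36, known as a repressor of HY5 transcription in hypocotyl elongation, was at 8.85, 18.64 and 14.27 FPKM in Col-0, at 8.81 and 19.18 FPKM in MIR394A_OE and at 15.14, 20.85 and 32.55 FPKM in bin2-1, with overlapping groups (log2 0.67, SE 0.36, limma adjusted p 0.357 against Col-0). WRKY23, an auxin-responsive regulator of flavonol synthesis, was at 1.18, 1.08 and 0.81 FPKM in Col-0 and at 1.65, 2.1 and 1.59 FPKM in bin2-1, without overlap (log2 0.46, SE 0.19, limma adjusted p 0.247). WRKY56 was at 1.74, 1.28 and 0.93 FPKM in Col-0 and at 0.32, 0.52 and 0.81 FPKM in bin2-1, the third member with every bin2-1 library below Col-0 (log2 -0.58, SE 0.23, limma adjusted p 0.246).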
